A study of Gallus gallus with 20 samples.

Results

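The genes described here are the heat shock proteins and other molecular chaperones of the chicken, read in the pituitary and the hypothalamus of Korat birds. They were taken by gene symbol: the HSPA, HSPB, HSPD, HSPE and HSPH families, the J-domain families DNAJA, DNAJB and DNAJC, the CCT subunits with TCP1, BAG1 to BAG6, the PDIA family, and HSF1, HSF2, CHORDC1, STIP1 and AHSA1. Of the 28021 genes in the deposited table, 75 matched, spread over 25 chromosomes. HSPBAP1 and HSPB11 matched by name although they are not chaperones. They form a class of their own but are included in the counts over all members. HSPA2, CCT3, BAG6 and HSPBP1 were not matched by name and are not analysed here.

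The study asked which genes differ between birds that eat less and birds that eat more than their body weight and growth predict, a trait called residual feed intake (RFI). RNA was sequenced from male chickens of the slow-growing Korat line, which were kept in single cages and fed freely. RFI was worked out at an age of 10 weeks, and birds at its low and high extremes form the groups. The groups are pituitary of low RFI birds, pituitary of high RFI birds, hypothalamus of low RFI birds and hypothalamus of high RFI birds, with 5 libraries in each by their titles. All birds share the same line, sex, age and feed, and no group received an agent or carries an engineered allele. Each library holds pooled RNA. The design text states 10 birds per RFI group for the hypothalamus and 8 for the pituitary. Pituitary RNA was joined from 2 birds of neighbouring RFI rank, in 4 pools per group as stated, whereas 5 pituitary libraries per group are titled; the labels do not settle which holds. The p values therefore measure the spread between pooled samples, which may be partly technical.

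Chaperones bind unfolded protein chains and help them reach or regain their shape. In the cytosol, HSP70 proteins bind short exposed stretches, J-domain proteins bring them their clients, and BAG proteins and the HSP110 relatives make them let go; HSP90 takes over later steps, and the ring-shaped TRiC complex encloses actin, tubulin and other clients. Mitochondria keep an HSP70, an HSP60 chamber and its HSP10 lid of their own. In the endoplasmic reticulum (ER), BiP (gene HSPA5), its J-domain partners and the protein disulfide isomerases fold secreted and membrane proteins, and the unfolded protein response raises them when that compartment is loaded. The pituitary exports peptide hormones in bulk through its ER, while the hypothalamus consists mostly of neurons and glia. Heat and other protein damage raise the cytosolic set through heat shock factors.

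The libraries held 10262777 to 11960994 counts in the pituitary and 11418600 to 12647034 in the hypothalamus. Endocrine markers of the pituitary were found where its label puts them: the summed level of 9 matched genes of anterior pituitary endocrine cells was 14800 to 90000 FPKM in pituitary libraries and 2.96 to 29.3 FPKM in hypothalamus libraries. FPKM is a count per length of the gene and per library size, so it allows levels of different genes to be set side by side. Pituitary low 1 stood apart, with the lowest endocrine sum, 7430 FPKM for 7 matched oligodendrocyte markers against 129 to 3540 FPKM in the other 9 pituitary libraries, and 475.5 FPKM of SNAP25, a gene of the neuron marker list. Pituitary high 4 had 248 FPKM of SNAP25, pituitary low 2 had 98.8 FPKM, and the other 7 pituitary libraries had 24 to 45.6 FPKM. The sum over 11 matched neuron markers was 6780 to 16900 FPKM in the pituitary and only 2370 to 3760 FPKM in the hypothalamus, so this sum did not mark the hypothalamus. It includes POMC, which pituitary cells also make. Within the pituitary this sum did not follow SNAP25: it was lowest in high 4 (6780 FPKM) and low 1 (7630 FPKM). A sum without POMC is not given here, so the ranking of libraries by SNAP25 below rests on that gene alone. The 7 matched oligodendrocyte markers summed to 7700 to 20100 FPKM in hypothalamus libraries. Hypothalamus low 2 had 36400 FPKM of pineal and choroid plexus markers against 24.2 to 138 FPKM in the other 9 hypothalamus libraries. Pituitary low 1 had 961 FPKM of these markers against 7 to 40.9 FPKM in the other 9 pituitary libraries. No marker of these lists was at 0 in all libraries except the embryonic globin gene HBZ. The 6 astrocyte and ependyma markers summed to 889 FPKM in pituitary low 1, 514 FPKM in high 4, 387 FPKM in high 1 and 130 FPKM in low 2, and to 75.1 to 321 FPKM in the other 6 pituitary libraries, so that pituitary low 2, high in SNAP25, was not high in glial markers, while high 1, with 3540 FPKM of oligodendrocyte markers, had the lowest SNAP25. A sum of 8 matched immediate early genes, which respond fast to handling and other stimuli, was 455 to 1280 FPKM in pituitary libraries and 104 to 147 FPKM in hypothalamus libraries, highest in pituitary low 5 and high 1; its part in the results between the tissues was not tested.

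Chaperone genes were expressed at high and broad levels in both tissues. In the pituitary 73 of the 75 averaged at least 1 FPKM and in the hypothalamus 70 did, against 54.1% and 52.1% of all genes; the median of the members' means was 25.3 FPKM in the pituitary and 26.4 FPKM in the hypothalamus. HSPA8, the constitutive HSP70 of the cytosol, was the most abundant member of both. In the pituitary it was followed by PDIA3, a disulfide isomerase that acts on glycoproteins, and by HSPA5, and only these 3 exceeded 100 FPKM. In the hypothalamus 9 members did, with HSPA5 and PDIA3 next to each other at means of 167 ± 27 and 166 ± 9.55 FPKM (SD, n = 10 each), which do not differ beyond their spread, followed by HSPD1, DNAJA2, DNAJA1, HSPA9, DNAJC8 and CCT2.

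The clearest pattern lay between the tissues, where several classes of members went in opposite directions. Of 74 members tested with edgeR's quasi-likelihood test, 21 (28.4%) were higher in the pituitary at an adjusted p under 0.05 and 39 (52.7%) were lower; 14 did not pass. Over all 16747 genes tested, 38.3% were higher and 32.5% lower, so a call between these tissues is common and the members' counts are read against that. HSPB3 and DNAJC5B passed the filter on low counts only through the pituitary, where they are high; over the 72 members and 14512 genes that passed it in each tissue by itself, 26.4% of members were higher and 54.2% lower, against 36.5% and 33.6% of genes. The median log2 fold, pituitary minus hypothalamus, was -0.21 over the members and 0.07 over all genes tested. ER members and small heat shock proteins lay mostly above 0, and the cytosolic HSP70 set, its co-chaperones, the mitochondrial chaperones and TRiC lay below it. BAG proteins, heat shock factors and the other J-domain proteins went both ways, so the split did not follow compartment throughout. All 10 pituitary libraries lay above all 10 hypothalamus libraries, on library-scaled counts, for 6 members (8.11%, against 10.9% of all genes), and below them for 16 members (21.6%, against 8.04% of all genes). The 6 include HSPB3 and DNAJC5B, which passed the filter only where they are high. These shares were not worked out over the genes that passed it in each tissue by itself. In bulk tissue, fewer cells of a type and less RNA per cell cannot be told apart, and the tissues differ in their cells throughout.

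**Figure D1:**
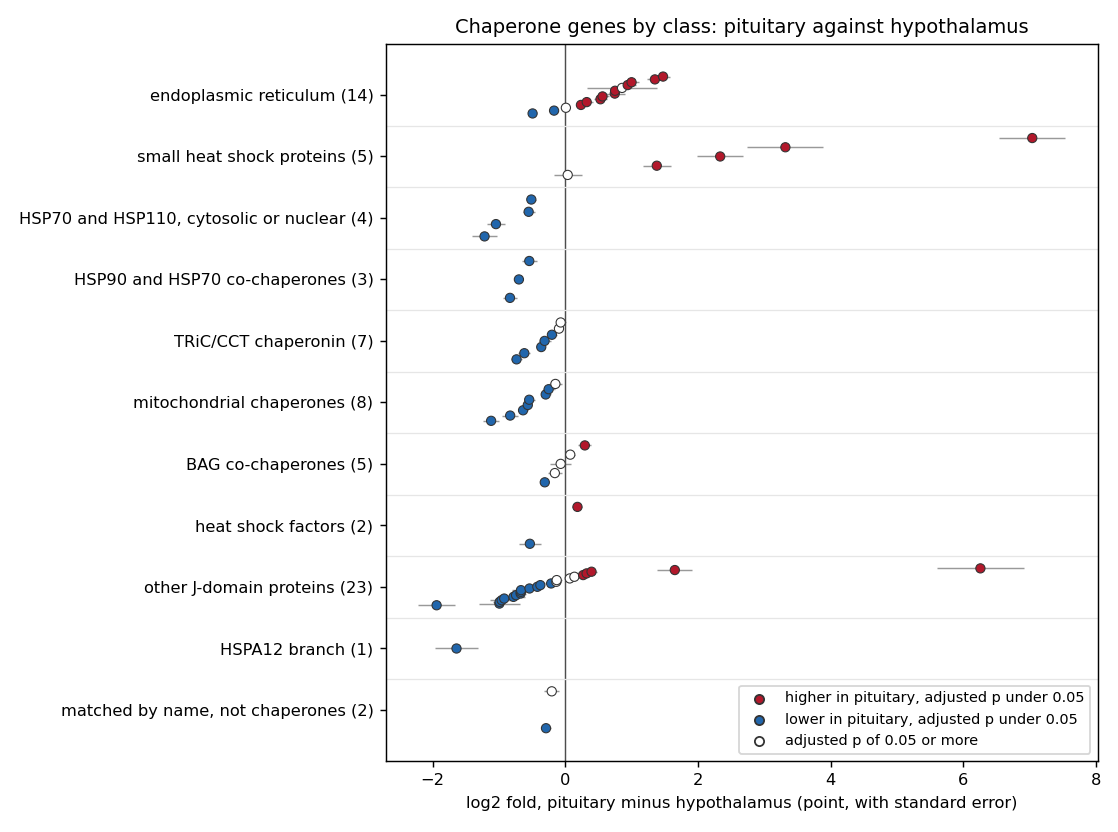
Log2 fold of each of the 74 members tested, pituitary minus hypothalamus, by class (number tested in parentheses), as points with standard errors. ER members sit mostly to the right of 0 (10 of 14 higher in the pituitary, against 38.3% of all genes tested). The HSP70/HSP110, co-chaperone, TRiC and mitochondrial classes sit to its left. The points beyond 6 are HSPB3 and DNAJC5B, whose hypothalamus counts were near 0, so that their position depends on the prior count.

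Of the 14 ER members, 10 were higher in the pituitary, DNAJB14 and DNAJC16 were lower, and DNAJB12 and PDIA2 did not pass. Of all genes tested, 38.3% were higher and 32.5% lower. The median log2 fold of the ER members was 0.65. HSPA5, the ER's HSP70, had 213, 286, 319, 300 and 523 FPKM in the pituitary of low RFI birds and 309, 256, 331, 271 and 328 FPKM in that of high RFI birds, against 148, 195, 223, 191 and 151 FPKM in the hypothalamus of low RFI birds and 146, 157, 152, 168 and 141 FPKM in that of high RFI birds. Pituitary low 1 fell inside the hypothalamus range, and the other 9 pituitary libraries lay above it; pituitary low 5 was the highest. The log2 fold of HSPA5 was 0.94, SE 0.13, adjusted p = 4.12e-06. Leaving out low 1, its lowest pituitary library, was bound to raise the fold, to 1.00.

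Of the disulfide isomerases, PDIA3, PDIA4, PDIA5 and PDIA6 were higher in the pituitary as well. PDIA3 had 237, 250.3, 339, 357 and 482 FPKM in pituitary low and 377, 284, 314, 251 and 364 FPKM in pituitary high libraries, against 162, 178, 174, 176 and 147 FPKM in hypothalamus low and 169, 172, 159.6, 167 and 157 FPKM in hypothalamus high libraries. No pituitary library reached down to the hypothalamus range, in which PDIA3 varied little. The log2 fold was 1.00, SE 0.11, adjusted p = 6.08e-07. PDIA4, a larger isomerase with an extra thioredoxin domain, averaged 96.0 ± 22.1 FPKM in the pituitary and 38.5 ± 5.77 FPKM in the hypothalamus (SD, n = 10 each), without overlap (log2 fold 1.35, SE 0.13, adjusted p = 5.87e-08). PDIA6, which tunes the stress sensors of the ER, averaged 95.5 ± 18.4 and 66.0 ± 6.70 FPKM in the same order, and its ranges overlapped (log2 fold 0.56, SE 0.10, adjusted p = 0.000102). PDIA5 was a low gene, at 4.61 ± 1.35 FPKM in the pituitary and 2.83 ± 0.599 FPKM in the hypothalamus, and passed with overlapping ranges (log2 fold 0.75). PDIA2, the pancreas-type isomerase of mammals, stayed at or below 2.23 FPKM and did not pass; its log2 fold was 0.86, or 0.31 without pituitary low 5 and 0.21 without pituitary high 4.

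Among the J-domain partners of BiP, DNAJC10 showed the largest fold. This reductase breaks wrong disulfides so that a misfolded chain can leave the ER. It had 20.9, 32.1, 38.1, 41.1 and 43.8 FPKM in pituitary low and 40.9, 33.4, 37.6, 27.5 and 39.0 FPKM in pituitary high libraries, against 12.4, 14.4, 13.4, 13.3 and 12.3 FPKM in hypothalamus low and 11, 12.5, 13.8, 13.7 and 13.3 FPKM in hypothalamus high libraries (log2 fold 1.47, SE 0.11, adjusted p = 3.78e-09). The pituitary values again spread more widely and all lay above the hypothalamus, with low 1 the lowest. DNAJC3, which delivers clients to BiP and restrains the kinase PERK, ranged over 35.0 to 49.4 FPKM in the pituitary and 23.4 to 28.3 FPKM in the hypothalamus (log2 fold 0.75). DNAJB9, which restrains the sensor IRE1, HSPA13, an HSP70 relative of the ER, and DNAJC1 rose less, at log2 folds of 0.32, 0.53 and 0.24, and their ranges overlapped. The exceptions were DNAJB14 and DNAJC16, J-domain proteins anchored in the ER membrane, which were lower at -0.49 and -0.17; under upper-quartile scaling DNAJC16 no longer passed, at -0.10. DNAJB12, the close relative of DNAJB14, was at 21.6 ± 1.23 FPKM in the pituitary and 22.0 ± 1.01 FPKM in the hypothalamus, a log2 fold of 0.01 whose sign turned with the scaling.

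**Figure D2:**
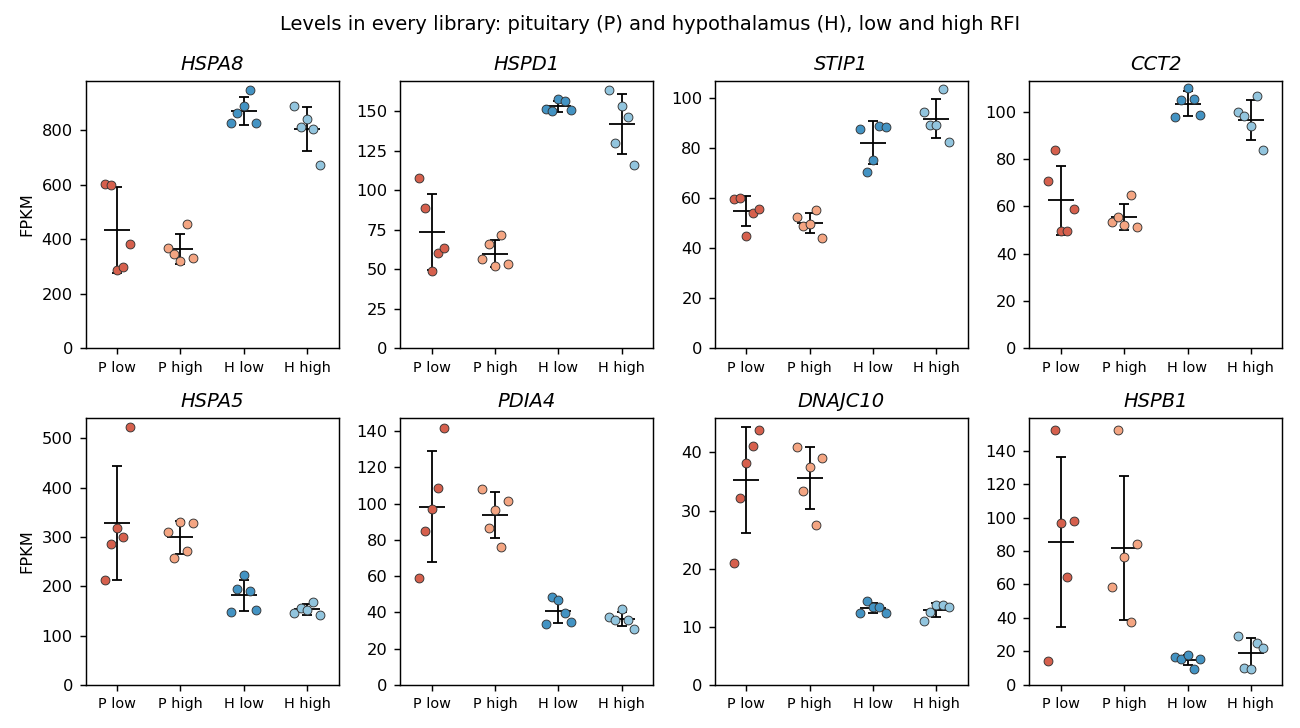
FPKM of 8 members in each of the 20 libraries (points), with the mean and SD of each group of 5, for pituitary (P) and hypothalamus (H) of low and high RFI birds; the axes start at 0. The upper row holds cytosolic and mitochondrial members that were lower in the pituitary and the lower row holds ER members and HSPB1, which were higher; within a tissue the low and high RFI points overlap in every panel.

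Other genes of ER folding and of the unfolded protein response, from a list that is not part of the members, moved the same way. In the pituitary 35 of 40 were higher and 3 were lower, against 38.3% and 32.5% of all genes tested. Their median log2 fold was 0.61. Among those of smallest p were MBTPS1, the protease that activates ATF6 (1.48), UGGT2, a glycoprotein folding sensor (1.73), the stress sensor ERN1 (1.06) and HERPUD1, of ER-associated degradation (1.65). The 3 lower were CHAC1 (-1.67), a glutathione-degrading enzyme induced by ATF4, SDF2 (-0.54) and CRELD1 (-0.35). HSP90B1, the HSP90 of the ER, averaged 331 ± 87.6 FPKM in the pituitary and 177 ± 13.5 FPKM in the hypothalamus (log2 fold 0.94, SE 0.12, adjusted p = 2.23e-06).

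The small heat shock proteins, which hold unfolding proteins in oligomers without using ATP, varied widely in their folds and had the widest spread between libraries. Without HSPB3, which passed the filter only through the pituitary, their log2 folds ran from 0.04 (HSPB2) to 3.32 (HSPB7). HSPB1 had 14.3, 153, 96.8, 64.4 and 98.1 FPKM in pituitary low and 58.6, 152, 76.7, 37.4 and 84.1 FPKM in pituitary high libraries, against 16.3, 15.5, 17.7, 9.38 and 15.5 FPKM in hypothalamus low and 29.0, 9.84, 9.32, 25.1 and 22.3 FPKM in hypothalamus high libraries. Pituitary low 1 lay at the hypothalamus level and the other 9 pituitary libraries above it. The log2 fold was 2.34, SE 0.34, adjusted p = 9.56e-06. Leaving out low 1, the lowest pituitary library, was bound to raise the fold, to 2.47. HSPB8, which works with BAG3 in clearing aggregates, ranged over 39.1 to 143 FPKM in the pituitary and 18.5 to 44.9 FPKM in the hypothalamus (log2 fold 1.38, SE 0.21, adjusted p = 1.17e-05). HSPB7, known from heart and skeletal muscle, ranged over 0.957 to 21.9 FPKM in the pituitary and 0.481 to 1.80 FPKM in the hypothalamus (log2 fold 3.32, SE 0.57, adjusted p = 5.22e-05).

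HSPB3, a small heat shock protein of muscle in mammals, was close to the detection limit in the hypothalamus. It had 36, 265, 236, 128 and 194 counts in pituitary low libraries and 131, 100, 166, 50 and 123 counts in pituitary high libraries, against 1, 4, 2, 1 and 0 counts in hypothalamus low libraries and 1, 0, 1, 0 and 0 counts in hypothalamus high libraries. All pituitary libraries lay above all hypothalamus libraries, and no p is given, since the gene entered the test only through the pituitary. HSPB2, which pairs with HSPB3 in muscle, did not share this pattern: it averaged 4.01 ± 1.46 FPKM in the pituitary and 3.99 ± 0.959 FPKM in the hypothalamus, and did not pass (log2 fold 0.04, with either sign when single libraries were left out). Markers of fibroblasts and meninges also differed, with a sum over 6 genes of 213 to 3670 FPKM in pituitary libraries and 57.8 to 218 FPKM in hypothalamus libraries. Pituitary low 1, where HSPB1 and HSPB3 were lowest, had the lowest of the pituitary sums. Pituitary high 2, one of the highest for HSPB1 and HSPB7, had the highest sum, but HSPB3 had only 100 counts there. HSPB8 was lowest in pituitary high 4, at 39.1 FPKM, and not in low 1. The part of these markers in the small heat shock result was not tested. CRYAB, a further small heat shock protein that the symbol rule does not take in and that is abundant in oligodendrocytes, went the other way, at 14.7 to 165 FPKM in the pituitary and 281.7 to 520.1 FPKM in the hypothalamus (log2 fold -2.50).

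The cytosolic HSP70 and HSP110 genes were all lower in the pituitary, 4 of 4, against 32.5% of all genes tested. Their median log2 fold was -0.80. HSPA8 had 604, 599.6, 286, 299.7 and 381 FPKM in pituitary low and 367, 345, 319.5, 456 and 329.9 FPKM in pituitary high libraries, against 828, 864, 888, 948 and 826 FPKM in hypothalamus low and 891, 814, 844, 804 and 673 FPKM in hypothalamus high libraries. The tissues did not overlap, but pituitary low 1 and low 2 came near the lowest hypothalamus library, high 5. The log2 fold was -1.05, SE 0.14, adjusted p = 2.2e-06. HSPH1, the HSP110 that reloads HSP70 with ATP and dissolves aggregates with it, had 50.2, 40.8, 16.3, 20.6 and 22.9 FPKM in pituitary low and 17.1, 20.2, 20.5, 38.2 and 17.6 FPKM in pituitary high libraries, against 69.7, 75.2, 59.5, 68.4 and 67.1 FPKM in hypothalamus low and 77.1, 55.8, 53.5, 46.3 and 51.6 FPKM in hypothalamus high libraries. Pituitary low 1, low 2 and high 4, the libraries with the most SNAP25, were also the highest for HSPH1, and only low 1 reached the hypothalamus range (log2 fold -1.22, SE 0.19, adjusted p = 2.03e-05). These 3 were the highest pituitary libraries for HSPA8 too. Leaving them out was bound to lower both folds, to -1.65 for HSPH1 and -1.31 for HSPA8. SNAP25 is a single marker, and the sum over 11 matched neuron markers was lowest in pituitary high 4 and low 1. The part of neural tissue in these levels was not tested. The HSP110 relatives HSPA4 and HSPA4L were lower by less, at -0.51 and -0.55.

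The co-chaperones of HSP90 were lower too, 3 of 3, where 32.5% of all genes tested were lower. STIP1, the adaptor that passes clients on to HSP90 from HSP70, ranged over 44.1 to 60.2 FPKM in the pituitary and 70.5 to 104 FPKM in the hypothalamus, without overlap (log2 fold -0.70, SE 0.07, adjusted p = 9.33e-08). AHSA1, which speeds up the ATPase of HSP90, ranged over 36.1 to 73.8 and 76.6 to 113 FPKM in the same order (log2 fold -0.83, SE 0.11, adjusted p = 3.01e-06), and CHORDC1, a further HSP90 partner, over 7.87 to 15.8 and 11.4 to 19.2 FPKM (log2 fold -0.54, SE 0.11, adjusted p = 0.000302). The cytosolic HSP90 genes HSP90AA1 and HSP90AB1 went with them at -0.81 and -0.68, and so did the mitochondrial TRAP1 at -0.56. Of 28 other cytosolic genes of protein quality control tested, 20 were lower and 4 higher in the pituitary, against 32.5% and 38.3% of all genes. Their median was -0.41. PPID (-0.84), PTGES3 (-0.74), ST13 (-0.74) and FKBP4 (-0.55), all partners of HSP90 or HSP70, had the smallest p.

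The mitochondrial chaperones were lower in the pituitary for 7 of 8 members, against 32.5% of all genes tested, with a median of -0.56. HSPD1, the HSP60 chamber, had 108, 88.7, 48.8, 60.5 and 63.2 FPKM in pituitary low and 56.3, 66.1, 52.1, 71.6 and 53.3 FPKM in pituitary high libraries, against 151, 150.2, 158, 157 and 151 FPKM in hypothalamus low and 164, 129.9, 153, 146 and 116 FPKM in hypothalamus high libraries (log2 fold -1.12, SE 0.12, adjusted p = 2.56e-07). The ranges did not overlap, and pituitary low 1 was the nearest to the hypothalamus. HSPE1, the HSP10 lid, ranged over 37.8 to 73.0 FPKM in the pituitary and 65.8 to 112 FPKM in the hypothalamus (log2 fold -0.83, SE 0.12, adjusted p = 9.85e-06). These genes lie head to head on chromosome 7 of the GRCg6a build, HSPD1 on the minus strand at 10221487 to 10231186 and HSPE1 on the plus strand at 10231654 to 10236618, with 467 bases between their annotated starts. The ratio of HSPD1 to HSPE1, taken within each library on FPKM, was 1.36 ± 0.223 in the pituitary and 1.67 ± 0.169 in the hypothalamus (SD, n = 10 each), with overlapping ranges of 1.07 to 1.77 and 1.42 to 1.88. HSPA9, the mitochondrial HSP70, was lower by -0.57 on the log2 scale, and its J-domain partner DNAJA3 by -0.64, both without overlap between the tissues. The import-motor proteins DNAJC15 (-0.55) and DNAJC19 (-0.25) and the cristae-associated DNAJC11 (-0.30) were also lower, and DNAJC30 (-0.15) did not pass. DNAJC19 lost its call under upper-quartile scaling (-0.18), under limma-voom (-0.13), without pituitary low 1 and high 4 (-0.22) and without low 2 as well (-0.20). Of 10 other mitochondrial quality-control genes, 6 were lower, against 32.5% of all genes tested, and CLPX, a subunit of the matrix protease, was higher (0.57).

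Subunits of TRiC, which come together in fixed proportions, did not move evenly. CCT2 had 70.6, 83.9, 49.6, 49.5 and 58.9 FPKM in pituitary low and 53.4, 55.6, 52.1, 64.7 and 51.1 FPKM in pituitary high libraries, against 97.7, 105, 110, 106 and 98.7 FPKM in hypothalamus low and 100.2, 98.2, 94.1, 107 and 84.1 FPKM in hypothalamus high libraries; pituitary low 2 was the highest of the pituitary and stopped just short of the lowest hypothalamus library (log2 fold -0.74, SE 0.09, adjusted p = 8.18e-07). CCT8 (-0.62), CCT7 (-0.36), TCP1 (-0.31) and CCT5 (-0.20) also passed and overlapped, whereas CCT4 (-0.10) and CCT6A (-0.07) did not pass. CCT5 lost its call under upper-quartile scaling (log2 fold -0.14) and when hypothalamus high 1 (-0.19), pituitary low 3 (-0.17) or pituitary low 4 (-0.17) was left out, and CCT4 passed under DESeq2 (-0.12), under limma-voom (-0.15), without pituitary low 2 (-0.14) and without low 1, low 2 and high 4 (-0.16). Within a library the highest of the 7 subunits stood at 1.39 to 1.75 times the lowest in the pituitary and at 1.44 to 1.92 times in the hypothalamus, on FPKM.

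The J-domain proteins that were not placed in the ER or mitochondrial classes were mixed, with 14 of 23 lower in the pituitary and 5 higher. Of all genes tested, 32.5% were lower and 38.3% higher. The 5 higher members include DNAJC5B, which entered the test only through the pituitary. The lowest fold was that of DNAJC6. DNAJC5, DNAJC7, DNAJB5 and DNAJC27 followed and did not differ from each other beyond their standard errors. DNAJC6, auxilin, which strips clathrin from vesicles, had 55.3, 16.4, 9.62, 11.2 and 10.7 FPKM in pituitary low and 15.7, 13.7, 12.4, 26.1 and 11.2 FPKM in pituitary high libraries, against 63.3 to 78.6 FPKM in the hypothalamus (log2 fold -1.94, SE 0.27, adjusted p = 6.13e-06). Pituitary low 1, with the most SNAP25, was near the hypothalamus, and high 4 was the next highest. Leaving out both was bound to lower the log2 fold, to -2.46. DNAJC5, the cysteine-string protein of synaptic vesicles, was at 34.9, 9.63, 6.36, 7.83 and 5.71 FPKM in pituitary low and 7.04, 6.86, 9.35, 15.9 and 7.43 FPKM in pituitary high libraries, against 12.8 to 34.9 FPKM in the hypothalamus (log2 fold -0.99, SE 0.31, adjusted p = 0.00786). Pituitary low 1 was above the hypothalamus median. Leaving out low 1 and high 4, the highest pituitary libraries for DNAJC5, was bound to lower the log2 fold, to -1.54. DNAJC7, which holds clients between HSP70 and HSP90, DNAJB5, and DNAJC27, a small GTPase with a J domain, were lower at -0.99, -0.96 and -0.92. The general cytosolic partners of HSPA8 went with it, DNAJA1 at -0.74, DNAJA2 at -0.67, DNAJB6, which keeps aggregation-prone proteins soluble, at -0.67, and DNAJB2, known from neurons, at -0.54; these 4 and DNAJC7 did not overlap between the tissues.

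There were 5 that were higher in the pituitary, counting DNAJC5B. DNAJB13, a J-domain protein of cilia and sperm tails, ranged over 5.53 to 25.7 FPKM in the pituitary and 2.38 to 8.50 FPKM in the hypothalamus (log2 fold 1.65, SE 0.27, adjusted p = 2.44e-05). Its highest hypothalamus value was that of low 2, so leaving out that library was bound to raise the log2 fold, to 1.84. DNAJC5B, a relative of DNAJC5, had 13, 20, 42, 20 and 34 counts in pituitary low libraries and 27, 3, 19, 14 and 23 counts in pituitary high libraries, against 2 counts in 1 hypothalamus library and 0 in the other 9; like HSPB3 it entered the test only through the pituitary, and no p is given. It stayed at or below 5.46 FPKM. DNAJC13, of endosome sorting, DNAJB4, a general cytosolic HSP40, and DNAJC24, of diphthamide synthesis, were higher by less, at 0.40, 0.32 and 0.27. DNAJB4 lost its call without pituitary low 1 (0.29) and without hypothalamus low 2 (0.27). DNAJB1, the heat-induced HSP40, was at 31.8 ± 3.81 FPKM in the pituitary and 29.5 ± 3.06 FPKM in the hypothalamus and did not pass. DNAJC22 had 42 counts over the pituitary libraries and 28 over the hypothalamus libraries and was not tested.

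The regulators moved in both directions. HSF1, the main heat shock factor of mammals, was lower in the pituitary, at 6.75 ± 1.64 FPKM against 10.0 ± 2.76 FPKM (log2 fold -0.54, SE 0.17, adjusted p = 0.00875). HSF2 was slightly higher, at 16.3 ± 2.00 against 14.7 ± 1.56 FPKM (log2 fold 0.18, SE 0.08, adjusted p = 0.038). HSF3, a further heat shock factor that the symbol rule does not take in, was higher too, with overlapping ranges (log2 fold 0.51, SE 0.07, adjusted p = 2.26e-06). Among the BAG proteins, which release HSP70 from its clients, BAG1 was higher (0.29) and BAG5 lower (-0.31). BAG2 (-0.16), BAG3 (-0.07) and BAG4 (0.07) did not pass. Without pituitary low 1, low 2 and high 4 BAG3 passed, at -0.21. Leaving out low 2, the highest pituitary library for BAG3, was bound to lower its fold. HSPA12A, a distant HSP70 relative abundant in brain, had 41.5, 39.7, 6.59, 6.97 and 7.08 FPKM in pituitary low and 6.18, 7.64, 10.1, 11.3 and 7.81 FPKM in pituitary high libraries, against 33.2 to 64.4 FPKM in the hypothalamus (log2 fold -1.64, SE 0.32, adjusted p = 0.000171). Pituitary low 1 and low 2 were within the hypothalamus range, and the other 8 were far below it. Leaving out low 1, low 2 and high 4, the highest pituitary libraries for HSPA12A, was bound to lower the log2 fold, to -2.49.

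Within each library, the ratio of ER to cytosolic HSP70 did not overlap between the tissues. HSPA8 alone did not overlap and HSPA5 went the other way, so this ratio restates those results. The ratio of HSPA5 to HSPA8 on FPKM was 0.352, 0.477, 1.12, 1.00 and 1.37 in pituitary low and 0.842, 0.743, 1.04, 0.594 and 0.994 in pituitary high libraries, against 0.179, 0.226, 0.251, 0.202 and 0.183 in hypothalamus low and 0.164, 0.192, 0.18, 0.209 and 0.21 in hypothalamus high libraries. The 3 lowest pituitary ratios were those of low 1, low 2 and high 4. Summed over the 14 ER members, the level was 754.1, 908.6, 1061, 1104 and 1512 FPKM in pituitary low and 1110, 920.5, 1037, 869.2 and 1108 FPKM in pituitary high libraries, against 550.7 to 695.8 FPKM in the hypothalamus. Pituitary low 5, with the highest ER sum, also had the most of the immediate early genes, and their part in it was not tested. The ratio of PDIA4 to PDIA3 was 0.295 ± 0.0235 in the pituitary and 0.231 ± 0.028 in the hypothalamus, and that of PDIA6 to PDIA3 was 0.297 ± 0.028 and 0.397 ± 0.026 (SD, n = 10 each), so the isomerases differed in proportion as well as in level. With pituitary low 1 and high 4 aside, 20 members were higher and 37 lower between the tissues, and with low 2 aside as well 20 were higher and 39 lower; no called member changed direction in either set. Over all genes 12449 were called in the first set (6667 higher) and 12784 in the second (6811 higher). With all 20 libraries 11862 were called (6415 higher).

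Between the pituitary libraries themselves, a few carried most of the extremes. Pituitary low 1 was the highest of the 10 libraries for 25 of 74 members and the lowest for 18, including 10 of the 14 ER members. These are 33.8% and 24.3% of the members, against 22.5% and 27.8% of all genes tested, so the library held many extremes across the whole table. Pituitary low 2 was the highest for 17 (23%, against 12.7% of all genes), including all 7 TRiC subunits, and pituitary low 5 for 15 (20.3%, against 10.7%), including 9 ER members. In high RFI libraries no library was the highest for more than 4. Members raised by heat through HSF1 in other vertebrates (14 members, among them HSPA8, HSPH1, HSPD1, DNAJB1, BAG3 and HSPB1) were highest in low 1 for 6 and in low 2 for 6. In the hypothalamus, low 3 was the highest of the 10 libraries for 16 of 72 members (22.2%, against 10.5% of all genes) and low 2 for 13 (18.1%, against 16.7%), while high 5 was the lowest for 27 (37.5%, against 13.5%).

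**Figure D3:**
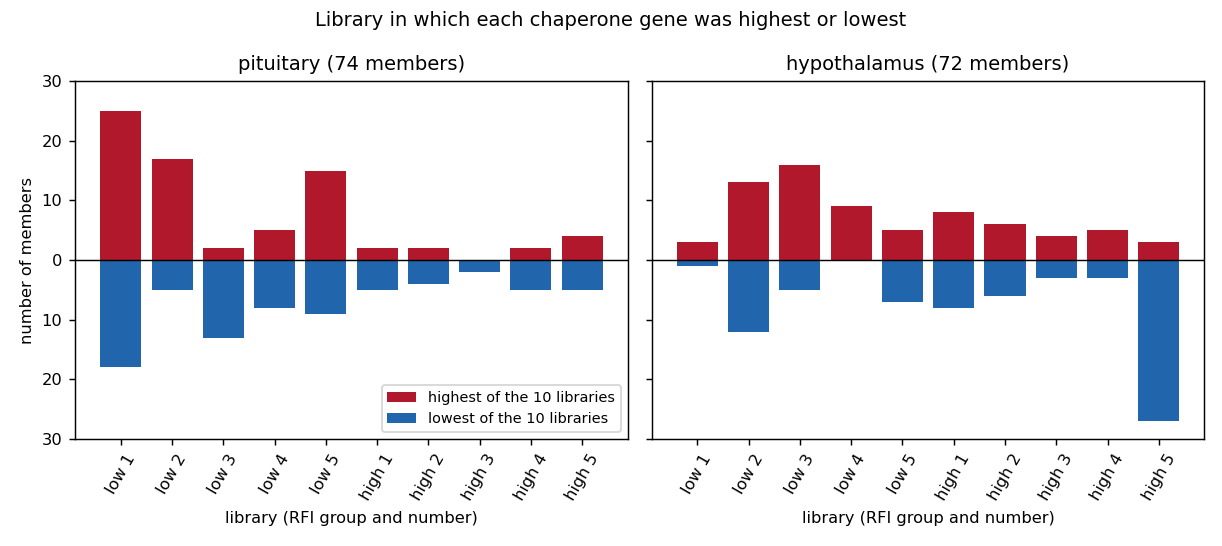
Number of chaperone genes that were at their highest (bars upward) or lowest (bars downward) in each of the 10 libraries of a tissue, on log2 library-scaled counts. In the pituitary the extremes gather in low 1, low 2 and low 5, and in the hypothalamus high 5 holds 27 of the lowest values.

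The study's own question was low against high RFI within a tissue. In the hypothalamus no member passed with edgeR, and 0 of 15179 genes did over the whole table (0%). Neither DESeq2 nor limma-voom called a member, though DESeq2 called 5 genes in all. At an unadjusted p under 0.05 there were 4 of 72 members (5.56%), against 4.8% of all genes; DESeq2 gave 5 members (6.94%, against 5.35% of all genes) and limma-voom 7 (9.72%, against 6.5%). No member separated the 5 low from the 5 high RFI libraries, while 0.922% of all genes did. The 4 members were DNAJC12 (log2 fold, low minus high, 0.55, SE 0.19), PDIA5 (0.39, SE 0.15), BAG3 (0.22, SE 0.10) and HSPA5 (0.24, SE 0.11), each with an edgeR adjusted p of 0.964. HSPA12A was next, at 0.36. The smallest p values on the negative side belonged to STIP1 (-0.16), HSPA13 (-0.17), DNAJB5 (-0.13), HSPB1 (-0.36) and HSF1 (-0.26), with edgeR adjusted p values of 0.964 to 0.969.

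For HSPA5, hypothalamus low libraries had 148, 195, 223, 191 and 151 FPKM, against 146, 157, 152, 168 and 141 FPKM in hypothalamus high libraries. Low 2, 3 and 4 were above all high RFI libraries, and low 1 and low 5 lay among them. BAG3, the co-chaperone that routes aggregates to autophagy, had 48.7, 52.2, 53.9, 52.6 and 42.5 FPKM in hypothalamus low libraries, against 51.2, 43.9, 40.7, 42.3 and 35.6 FPKM in hypothalamus high libraries, and high 1 and high 2 lay among the low RFI values. HSPA8, the most abundant member, had a log2 fold of 0.11 (SE 0.09), and HSPA4, HSPA4L and HSPH1 were at 0.08, 0.21 and 0.26. Over all members 51 of 72 folds were positive with a median of 0.05, against 51.8% and 0.01 over all genes, and the 7 TRiC folds were all positive. Without hypothalamus high 5, the library with most of the lowest values, 44 of 72 were positive with a median of 0.02, and 5 of 7 TRiC folds; without low 2, or without low 3 and low 4, 44 were positive as well. Of the HSP90 family, none of which are members, only HSP90AA1 had groups without overlap, as 0.922% of all genes did. It had 923, 926, 1001, 1039 and 927 FPKM in hypothalamus low and 917, 856, 895, 878 and 809 FPKM in hypothalamus high libraries. The gap was narrow, with a log2 fold of 0.14 and an edgeR adjusted p of 0.964.

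DNAJC12 showed the largest positive fold among the 72 members tested in the hypothalamus. It is a J-domain protein that, in humans, accompanies the hydroxylases of tyrosine and tryptophan, the enzymes that begin the synthesis of dopamine and serotonin; it lies on chromosome 6 at 7337219 to 7349970, plus strand, in GRCg6a. Hypothalamus low libraries had 46.2, 55.0, 103, 96.3 and 59.9 FPKM, against 50.5, 50.2, 46.1, 55.3 and 43.6 FPKM in hypothalamus high libraries. Low 3 and low 4 stood well above the rest, and the other 3 low RFI libraries were within or just above the high RFI range. Leaving out low 3 and low 4 was therefore bound to lower the log2 fold, to 0.14.

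Genes of the client enzymes, chosen after the values of DNAJC12 were seen, were read beside it. TPH2, the tryptophan hydroxylase of neurons, had 5.06, 14.1, 75.6, 61.4 and 4.15 FPKM in hypothalamus low libraries, against 4.68, 4.92, 7.34, 7.56 and 3.09 FPKM in hypothalamus high libraries. DDC, the decarboxylase that follows in both pathways, had 3.95, 43.9, 33.4, 49.5 and 17.0 FPKM in hypothalamus low libraries, against 6.59, 9.44, 6.57, 9.78 and 8.70 FPKM in hypothalamus high libraries, and TH, tyrosine hydroxylase, had 4.8, 1.70, 9.23, 24.5 and 10.2 FPKM against 4.11, 3.65, 3.77, 4.73 and 3.14 FPKM. TPH1, the other tryptophan hydroxylase and one of the pineal markers, had 0.164, 571.5, 0.122, 0 and 0.862 FPKM in hypothalamus low libraries, against 0.328 to 1.54 FPKM in hypothalamus high libraries, and so was near 0 where DNAJC12 was highest. TPH2 was highest in the same libraries as DNAJC12, low 3 and low 4; DDC was also high in low 2, which carries the pineal and choroid plexus markers, and TH was highest in low 4. The part that the number of aminergic cells in each sample has in the DNAJC12 values was not tested. In the pituitary DNAJC12 had 47.9, 31.1, 47.6, 38.1 and 29.0 FPKM in low and 33.3, 34.0, 32.1, 39.9 and 34.3 FPKM in high RFI libraries, with a log2 fold of 0.16, and the difference of the fold between the tissues, pituitary minus hypothalamus, was -0.40 (SE 0.27, adjusted p = 1).

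**Figure D4:**
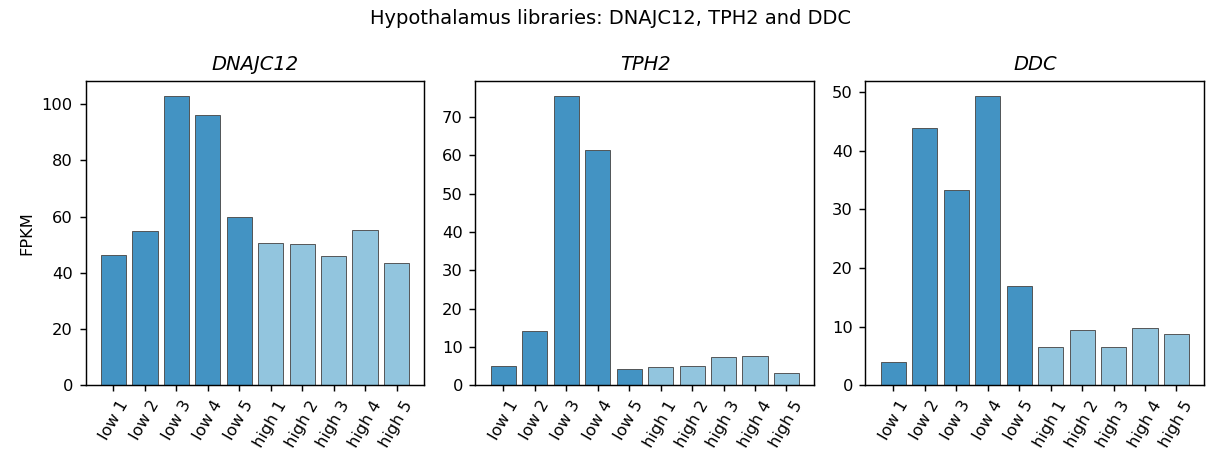
FPKM of DNAJC12, TPH2 and DDC (bars from 0, 1 panel per gene with its own axis) in each of the 10 hypothalamus libraries, low RFI in dark blue left of high RFI in light blue. Low 3 and low 4 are the highest for DNAJC12 and for TPH2, DDC is high in low 2 as well, and the 5 high RFI libraries lie close together for every gene.

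In the pituitary no member passed with edgeR, DESeq2 or limma-voom, and none of 15786 genes did (0%). At an unadjusted p under 0.05 there was 1 of 74 members (1.35%), against 1.88% of all genes, with edgeR. DESeq2 gave 3 members (4.05%, against 2.4% of all genes) and limma-voom gave 0 (against 3.33%). No member separated the groups, against 0.266% of all genes. The member was CHORDC1, at 15.8, 13, 10.3, 9.45 and 10.2 FPKM in pituitary low and 7.87, 8.44, 9.4, 10.8 and 8.06 FPKM in pituitary high libraries (log2 fold 0.40, SE 0.18, adjusted p = 0.999); low 1 and low 2 were the highest, and the other 3 low RFI libraries lay within the high RFI range. HSPA12A had the largest fold, 1.25 (SE 0.59), which rests on the 41.5 and 39.7 FPKM of low 1 and low 2; all 8 others were at 6.18 to 11.3 FPKM. BAG3 had 35.7, 97.0, 32.5, 44.6 and 42.6 FPKM in pituitary low and 34.8, 41.6, 43.3, 29.9 and 34.7 FPKM in pituitary high libraries (log2 fold 0.46), and without low 2, where it was far above the rest, the fold was 0.08. DNAJA4 (0.29) and HSPA4L (0.22) followed on the positive side. On the negative side the smallest p values were those of BAG4 (-0.14), DNAJC9 (-0.12), DNAJB12 (-0.06), DNAJC17 (-0.11) and DNAJC19 (-0.07).

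A shift in one direction over many pituitary members moved with a few libraries. Of 74 folds, low minus high, 60 were positive with a median of 0.10, against 55.5% and 0.02 over all genes. The 14 heat-inducible members were positive throughout, at 0.06 to 0.46 with a median of 0.22. Their median SE was 0.20 and none passed. In the hypothalamus 11 of these 14 were positive, with a median of 0.11. Left out alone, pituitary low 1 left 51 of 74 positive and low 2 left 51 as well; the heat-inducible median was then 0.12 and 0.09. Without low 1 and high 4, the 2 libraries with the most SNAP25, 56 of 74 members were positive with a median of 0.10, against 55.9% and 0.02 over all genes, and all 14 heat-inducible members with a median of 0.175, so the shift remained. Only with low 2, the third by SNAP25, left out as well was it gone in the sets tried: 36 of 74 members were positive with a median of -0.01, against 49% of all genes, and 9 of the 14 heat-inducible members with a median of 0.01; TRiC had 0 of 7 positive, and HSPA12A and HSPA8 were at -0.21 and -0.08. Low 1 and low 2 were the highest pituitary libraries for 25 and 17 of the 74 members. Leaving out both was therefore bound to lower the low RFI means of those members, whichever marker ranked the libraries. The loss of the shift is thus not read as a sign of its source. The glial markers do not single out the same 3 libraries, low 2 having 671 FPKM of oligodendrocyte and 130 FPKM of astrocyte and ependyma markers, and the part that neural tissue has in the shift was not tested. Among the ER members, 11 of 14 were positive with a median of 0.07 over all libraries, and 11 of 14 with a median of 0.19 without these 3, where no member passed.

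**Figure D5:**
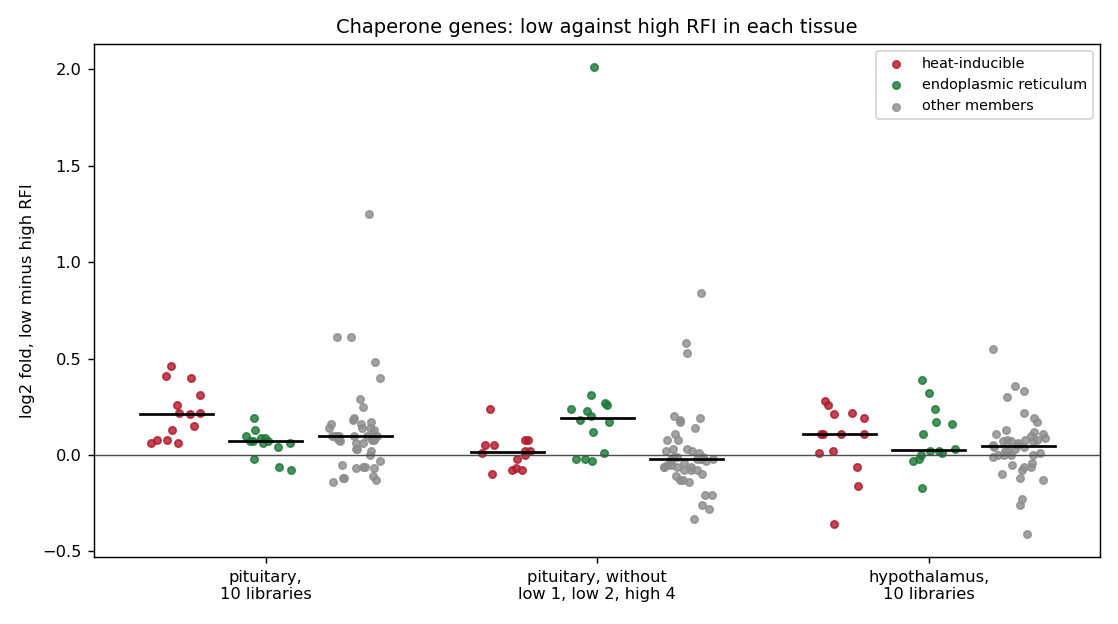
Log2 fold, low minus high RFI, of each member tested in the pituitary (all 10 libraries, and without low 1, low 2 and high 4) and in the hypothalamus, with heat-inducible, ER and other members apart and their medians as bars. The heat-inducible median of 0.22 in the pituitary is 0.01 without the 3 libraries; none of the folds passed, and the point at 2.01 is PDIA2, which stays near or below 2 FPKM.

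The RFI folds of the tissues were also set against each other in one fit of all 20 libraries. No member passed, nor did any of 16747 genes (0%) with edgeR, while DESeq2 called 2 genes and no member; 1 of 74 members (1.35%) had an unadjusted p under 0.05 with edgeR, against 2.34% of all genes, and 1 with DESeq2, against 2.65%. That member was STIP1, with a difference of 0.29 on the log2 scale (SE 0.14, adjusted p = 1). Its pituitary libraries had 59.5, 60.2, 45.0, 54.2 and 55.5 FPKM in low and 52.5, 48.8, 49.6, 55.2 and 44.1 FPKM in high RFI birds, and its hypothalamus libraries 87.7, 70.5, 75.3, 88.9 and 88.5 FPKM in low and 94.4, 89.1, 89.5, 104 and 82.5 FPKM in high RFI birds. In both tissues the low and high RFI values overlapped. The median difference was 0.04 over the members and 0.02 over all genes.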

How the data were processed

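The authors deposited a table of read counts per gene and of FPKM for 20 libraries of total RNA; all of its sample columns were mapped to 1 library each by name. Reads were aligned with HISAT2 2.0.5 to GRCg6a, and DESeq2 1.20.0 was used, per the submitters' processing notes. How reads were counted, and whether by strand, is not given in the sources used here; genes that overlap on either strand are therefore uncertain. The authors' FPKM equal the count over gene length and a median-ratio library size, to a relative deviation of 2.22e-16. Between libraries of a group, chi-square over its degrees of freedom was 7.858 or more, so each was counted as its own.

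Deposited counts were tested with edgeR 4.0.16 (R 4.3.3, quasi-likelihood test, TMM scaling, filterByExpr at a minimum count of 10), per tissue for RFI and over all 20 libraries for the tissues and for the difference. P values were adjusted by Benjamini-Hochberg over all genes tested, with a threshold of 0.05. DESeq2 1.42.0 and limma-voom (limma 3.58.1), other scalings, no filter, left-out libraries and a replicate block were alternatives. The code was tested on simulated data first. The filter passed 72 of 75 members in the hypothalamus (not DNAJC22, DNAJC5B and HSPB3) and 74 in the other comparisons (not DNAJC22). Standard errors and p values cover differences of dissection and pooling only as far as these vary between libraries of a group.

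The members, classes, gene lists and tests were chosen with earlier results of these data known. Named genes are those that passed, or the 5 of smallest p in each direction, those without overlap between tissues, the most abundant of each class, the defining members and those with a library far from its group; the enzymes beside DNAJC12 were added after its values were seen. Low and high RFI libraries come from different birds, so their numbers were not taken to pair samples. Same-numbered low and high libraries correlated at -0.08 to 0.361 (pituitary) and -0.109 to 0.145 (hypothalamus). Whether the tissues share birds was not settled, and the test between them treats all 20 libraries as independent.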

Additional observations from a re-analysis of the deposited data

Results flagged for a closer look

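Single libraries stood far from the other 4 of their group, by Dixon's test of the gap over the range, in 23 of 292 groups of 5 FPKM values (7.88%), over 20 members; chance gives about 1 in 20 groups (5%). Over all genes tested it was 9.54% of 61930 groups, so the members' share is not above that of the table. The values below are given without an explanation.

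Pituitary high 4 held 9 of them (39.1%, against 21.7% of those over all genes). It was high for HSPH1 at 38.2 FPKM (17.1 to 20.5 in the other 4), DNAJA1 at 104 (66.1 to 73.5), DNAJA2 at 96.9 (75.9 to 79.2), DNAJC5 at 15.9 (6.86 to 9.35), DNAJC12 at 39.9 (32.1 to 34.3), HSF2 at 17.8 (15.1 to 15.6) and PDIA2 at 2.05 (0.153 to 0.329). It was low for HSPB8 at 39.1 FPKM (76.9 to 90.8) and DNAJC19 at 24.6 (28.2 to 29.6). This library also had the second highest SNAP25 level of the pituitary, at 248 FPKM.

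Pituitary low 1 held 4 (17.4%, against 23.1% over all genes): DNAJC6 at 55.3 FPKM (9.62 to 16.4 in the other 4), DNAJC5 at 34.9 (5.71 to 9.63) and DNAJA3 at 18.4 (12.4 to 14.1) were high, and DNAJC9 at 9.62 (11.1 to 11.5) was low. Its SNAP25 level was 475.5 FPKM.

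The other pituitary values were BAG3 in low 2 at 97.0 FPKM (32.5 to 44.6), PDIA2 in low 5 at 2.23 (0.191 to 0.487), DNAJC17 in low 4 at 13.6 (10.2 to 11.1), DNAJB2 in high 2 at 28.7 (23.0 to 24.4) and HSF1 in high 5 at 4.9 (6.82 to 7.28).

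In the hypothalamus they were AHSA1 in low 3 at 113 FPKM (81.9 to 90.5), BAG4 in low 4 at 18.0 (15.8 to 16.3), HSPB1 in low 4 at 9.38 (15.5 to 17.7), DNAJB13 in low 2 at 8.5 (2.49 to 4.19) and DNAJB13 in high 5 at 5.76 (2.38 to 3.31).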

How the results depend on the processing

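Between the tissues, the counts of members called higher (19 to 21) and lower (37 to 41), and of all genes called (11576 to 12341), kept within 1.5 times their values when any 1 library was left out, as did the counts by class. DESeq2 called 5 genes in the hypothalamus and 2 in the difference of the RFI effect, none of them a member; in the other settings run no gene passed in the RFI comparisons. The cause of these changes was not tested. HSPA12A turned negative in the pituitary without low 1, low 2 and high 4, at -0.21, and in the difference between tissues at -0.57 there and at -0.38 under limma-voom. The tissue fold of DNAJB12 was -0.02 under median-ratio scaling and under DESeq2, and -0.02 to 0.02 with single libraries left out; that of HSPB2 was -0.08 to 0.12 with single libraries left out.

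With the replicate number as a replicate block, HSPB2 was at -0.02, all genes called between the tissues were 11574, and no member was called for RFI; at an unadjusted p under 0.05 there were 5 members in the hypothalamus (6.94%, against 3.42% of all genes) and 0 in the pituitary (against 1.53%). Because the numbers were not taken to pair the samples, this block is not read as a paired analysis. Same-numbered libraries of the tissues correlated at -0.306 to 0.254 in low and -0.052 to 0.022 in high RFI birds.

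Upper-quartile scaling moved the median log2 fold of all genes between the tissues to 0.142. In all, 571 of 587 values of single genes under other settings kept their direction and their side of the threshold, as did 1305 of 1320 with a library left out. These totals include the RFI comparisons and their difference, where no member passed and a change of side was unlikely from the start. Between the tissues some calls did change, as given above for DNAJC16, DNAJC19, CCT4 and CCT5. DESeq2 gave no adjusted p for DNAJC6 between the tissues, so that value was not compared. The settings with several libraries aside were chosen after seeing the data. The planned look at promoter and protein sequence features was not run, since no sequences were used here. With 5 pooled libraries a group, folds of low genes such as PDIA2, HSPB3 and DNAJC5B are limited by depth.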

Other observations

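Rows of the deposited table that carry no gene symbol but whose description names a chaperone are not members and enter no count above. The row described as DNAJB11, a BiP partner of the ER, averaged 29.5 ± 5.28 FPKM in pituitary low and 29.1 ± 1.67 FPKM in pituitary high libraries, against 26.4 ± 1.85 FPKM in hypothalamus low and 24.9 ± 3.24 FPKM in hypothalamus high libraries (SD, n = 5 each). The row described as DNAJC25 averaged 16.1 ± 4.3 and 15.8 ± 1.92 FPKM in pituitary low and high libraries, against 9.8 ± 1.26 and 9.96 ± 1.24 FPKM in hypothalamus low and high libraries. The row described as HSPA14, a ribosome-bound HSP70 relative, averaged 9.25 ± 1.16 and 9.47 ± 0.487 FPKM in pituitary low and high libraries, against 10.1 ± 1.25 and 10.4 ± 0.528 FPKM in hypothalamus low and high libraries.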
